A study of Mus musculus with 12 samples.

Results

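Nnt, Nlrp1b, Nlrp1a, Fam71b, Pttg1, Timd4, Wdfy1 and the pseudogenes Gm5823, Eif5al3-ps and Gm18860 were followed across 12 RNA-Seq libraries of mouse bone marrow LK (Lin-cKit+) cells. These 10 genes of the 55291 in the count matrix were chosen by their own counts in these libraries, because their levels separated, wholly or in part, the 6 libraries with a heterozygous Kdm6b deletion from the 6 libraries without it. Levels in that comparison are therefore given as a description, and where calls are counted in it, the choice had fixed the outcome for these genes. All 10 genes were among the 15825 genes that passed the expression filter, and this filter can pass a gene through the group in which it is high.

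LK cells are immature marrow cells, negative for lineage markers and positive for the receptor cKit, and they were purified with beads. Each library came from 1 mouse of a C57BL/6 strain at 12 months of age, with 3 mice in each of 4 genotypes. WT mice carried neither allele. Asxl1Y588XTg mice carried a transgene for a truncated ASXL1 protein. In Kdm6bΔ/+ mice 1 allele of Kdm6b, which encodes an H3K27 demethylase, was deleted through Mx1Cre, a Cre transgene that injected pI:pC, a mimic of viral RNA, turns on. Asxl1Y588XTg Kdm6bΔ/+ mice (DM) carried both. The sources used here do not state whether the WT and Asxl1Y588XTg mice of this experiment also carried Mx1Cre or received pI:pC, nor which C57BL/6 substrain was used. Mx1Cre is active in many cell types, so the deletion was not limited to LK cells. The libraries held from 14451522 to 23482563 counted reads. Of 10 progenitor markers none was at 0 in any library, and Mpo, the most abundant, had between 156834 and 224801 normalised counts. The neutrophil marker S100a9 was above Mpo in every library, at 230080 to 350721 normalised counts, and the neutrophil markers summed to between 935593 and 1425237 against 227535 to 306693 for the progenitor markers. The part of these transcripts in the results was not tested.

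Nnt encodes the nicotinamide nucleotide transhydrogenase of the inner mitochondrial membrane, which makes NADPH from NADH. Nlrp1a and Nlrp1b encode sensors of the NLRP1 inflammasome, a complex that activates caspase-1. Both Nnt and the Nlrp1 genes are known to differ in sequence between inbred mouse strains and, for Nnt, between C57BL/6 substrains. Whether the mice of the 4 genotypes differed in strain background was not tested, since counts per gene carry no sequence variants, and an effect of the deletion and a difference in background that came with it cannot be told apart in this design.

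Gm5823, Eif5al3-ps and Gm18860 are annotated as pseudogenes, which are copies of a gene elsewhere in the genome. Short stretches are shown to make visible how few bases tell reads of a copy from reads of its source gene. In the GENCODE M21 transcripts, Eif5al3-ps on chromosome 5 (90132229 to 90132675, mm10) aligned over 434 bases to Eif5a, the translation factor eIF5A, with 97.2% identity. Gm18860 on chromosome 8 (71704205 to 71704968) aligned over 760 bases to Cnot8, a deadenylase of the CCR4-NOT complex, with 97.8% identity. Below are the 60 aligned coding bases with the most differences in each pair, 5′ to 3′ on the strand of the transcript, with the bases that differ in capitals.
Eif5al3-ps (chr5:90132489-90132548, plus strand): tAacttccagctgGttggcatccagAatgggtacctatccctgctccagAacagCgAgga
Eif5a (chr11, minus strand, exons 4 and 5): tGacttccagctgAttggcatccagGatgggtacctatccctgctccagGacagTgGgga
Gm18860 (chr8:71704788-71704847, minus strand): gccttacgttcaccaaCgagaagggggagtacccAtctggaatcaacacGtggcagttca
Cnot8 (chr11:58111375-58111434, plus strand, exon 3): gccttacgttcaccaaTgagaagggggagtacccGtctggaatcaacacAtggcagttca

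The first pair differs at 6 of the 60 bases and the second at 3. The Eif5a stretch joins exons 4 and 5, whereas the copy is a single exon. Of the 50-base words of Eif5al3-ps, the length of a read, 23.6% also occur in transcripts of other genes, and all of these occur in Eif5a. For Gm18860 the share was 28.3%, all in Cnot8. Gm5823 has no GENCODE entry under that name. The gene that overlaps it, AC127331.2 on chromosome 18, aligned over 549 bases to Arf1, a small GTPase of vesicle traffic, with 94.9% identity, and shared 30.7% of its words with other genes. Counts of all 3 pseudogenes are therefore uncertain, since the sources used here do not state how reads with several matches were treated.

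Kdm6b itself was at 2127 ± 252 normalised counts in WT (SD, n = 3 mice in this and each value that follows), 2253 ± 59.7 in Asxl1Y588XTg, 1499 ± 141 in Kdm6bΔ/+ and 1810.3 ± 141 in DM. Counts per gene do not show the deleted part. A normalised count is the count scaled to a library of mean size, with library sizes corrected by TMM. Within each background the 3 deletion libraries were lower than the 3 others. Across backgrounds the ranges met, because the WT library 3 (1869) lay below the DM libraries 2 (1873) and 3 (1909). The log2 fold change of Kdm6b over the 6 libraries against 6 was −0.41 (SE 0.07, adjusted p = 0.00856 in edgeR), which is smaller than a fold of 1.5. It was −0.51 (SE 0.11, adjusted p = 0.279 in edgeR) in Kdm6bΔ/+ against WT. In DM against Asxl1Y588XTg it was −0.30 (SE 0.07, adjusted p = 0.0717 in edgeR).

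Nnt had 1308, 1307 and 1297 normalised counts in WT and 1139, 1193 and 1250 in Asxl1Y588XTg. With the deletion it had 3070, 2167 and 3360 in Kdm6bΔ/+ and 2891, 1960 and 2848 in DM. The 6 libraries without the deletion lay close together, and all 6 with it were higher, without overlap. Within the deletion libraries, the Kdm6bΔ/+ library 2 and the DM library 2 stood below the other 4. The log2 fold change was 1.12 (SE 0.11). Nnt lies on chromosome 13 (119335448 to 119408997), where GENCODE lists 2 gene IDs under the symbol, and 0.199% of its 50-base words occur in other genes.

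Nlrp1b was barely counted without the deletion and clearly counted with it. It had 5.49, 8.74 and 8.56 normalised counts in WT and 26.2, 7.04 and 10.1 in Asxl1Y588XTg. In Kdm6bΔ/+ it had 118, 175 and 188, and in DM 161, 188 and 185. The lowest library with the deletion, Kdm6bΔ/+ library 1, was 4.52-fold above the highest without it, Asxl1Y588XTg library 1. Over 6 against 6 libraries the log2 fold change was 4.0 (SE 0.27).

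Its neighbour Nlrp1a was lower with the deletion. Nlrp1a had 245, 199.9 and 176 normalised counts in WT, 167, 152 and 135 in Asxl1Y588XTg, 109, 92.2 and 116 in Kdm6bΔ/+ and 99.6, 99.0 and 94.9 in DM. All 6 libraries with the deletion lay below the 6 without it, although the gap was narrow, with the lowest library without the deletion 1.16-fold above the highest with it. The log2 fold change was −0.80 (SE 0.12). Both genes lie on the minus strand of chromosome 11, Nlrp1a from 71092236 to 71144704 and Nlrp1b from 71153102 to 71230733, 1.68 and 1.74 Mb from Kdm6b. Their longest coding transcripts aligned over 2007 bases with 84.2% identity, yet only 1.45% of the 50-base words of Nlrp1b and 2.07% of those of Nlrp1a occur in another gene, mostly in each other.

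Fam71b, Pttg1 and Timd4 also lie on chromosome 11, on the other side of Kdm6b and at 23.0, 26.0 and 22.6 Mb from it. None of their 50-base words occurs in another gene. Fam71b, a gene best known from testis, had 6.40, 7.65 and 6.42 normalised counts in WT, 11.1, 11.1 and 3.04 in Asxl1Y588XTg, 79.2, 85.3 and 82.0 in Kdm6bΔ/+ and 56.1, 79.0 and 68.1 in DM. The groups were 5.06-fold apart at their nearest libraries, with a log2 fold change of 3.28 (SE 0.28).

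Pttg1 encodes securin, the inhibitor of separase that holds sister chromatids together until anaphase. It had 65.0, 149 and 158 normalised counts in WT, 159.9, 149.9 and 161 in Asxl1Y588XTg, 565, 428 and 673 in Kdm6bΔ/+ and 361, 380.0 and 385 in DM. All 6 deletion libraries were higher, and the WT library 1 was lower than the other 5 libraries without the deletion. The log2 fold change was 1.71 (SE 0.18).

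Timd4, a phosphatidylserine receptor of resident macrophages, was low throughout. Its raw counts were 0, 9 and 13 in WT, 12, 9 and 9 in Asxl1Y588XTg, 17, 44 and 33 in Kdm6bΔ/+ and 59, 29 and 46 in DM. Normalised counts did not overlap between the 6 and 6 libraries, with a log2 fold change of 2.03 (SE 0.46), and the lowest deletion library was 1.54-fold above the highest without it. Of 19 macrophage markers 17 were tested. None was called over 6 against 6 libraries, where their median log2 fold change was 0.22, and Timd4 alone was called in DM against Asxl1Y588XTg, where the median was 0.47. That call, in a contrast that chose the gene, was lost with the replicate block, a term for Y-linked transcripts or 1 fit of all genotypes, and without Asxl1Y588XTg 2 or DM 1, although the log2 fold change of Timd4 stayed between 1.85 and 2.30. Cd163, a scavenger receptor of macrophages, rose by 1.08 (SE 0.14, adjusted p = 0.00800 in edgeR) in DM against Kdm6bΔ/+, but not without DM 1 (adjusted p = 0.0511 in edgeR) or with a term for Y-linked transcripts (1.20, adjusted p = 0.489 in edgeR). In that comparison Timd4 was at 0.26 (SE 0.33, adjusted p = 0.776 in edgeR). This value was 0.04 without Kdm6bΔ/+ 1 and 0.51 without Kdm6bΔ/+ 2. The summed normalised counts of the macrophage markers were 11912 ± 1731 in WT, 11554 ± 1849 in Kdm6bΔ/+, 11112 ± 4730 in Asxl1Y588XTg and 13472 ± 996 in DM. Vcam1, the most abundant, had a log2 fold change of 0.00 (SE 0.16) over 6 against 6 libraries. In bulk samples fewer cells of a type and less RNA per cell cannot be told apart, and the part of macrophages in the Timd4 values was not tested.

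Wdfy1, which encodes an endosomal protein that binds phosphatidylinositol 3-phosphate, did not follow the deletion in every library. It had 231, 263 and 244 normalised counts in WT, 1028, 196 and 1009 in Asxl1Y588XTg, 1710.3, 993 and 1068 in Kdm6bΔ/+ and 1025, 1709.8 and 241 in DM. Thus 5 libraries lay between 196 and 263 and 7 between 993 and 1710.3, with none between. The low libraries were all 3 of WT, 1 of Asxl1Y588XTg and 1 of DM. The spread within Asxl1Y588XTg (744 ± 475) and DM (992 ± 735) was accordingly wide, and the 6 against 6 log2 fold change of 1.38 had an SE of 0.53. That value ran from 1.35 to 2.07 over the alternative settings and from 1.08 to 1.62 with 1 library left out. Wdfy1 lies on chromosome 1 (79702262 to 79776143) and overlaps Mrpl44 and Gm10555, so that reads in the overlap are uncertain without knowledge of the strand setting.

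The 3 pseudogenes were nearly without counts in the libraries without the deletion. Eif5al3-ps had 2.74, 5.46 and 3.21 normalised counts in WT, 2.01, 5.03 and 4.05 in Asxl1Y588XTg, 131, 132 and 123 in Kdm6bΔ/+ and 103 in each of the 3 DM libraries. Its lowest deletion library was 18.8-fold above the highest library without it. With libraries below 3 counts set to 3 counts, the mean of the deletion libraries was 29.5-fold higher.

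Gm5823 had raw counts of 1, 1 and 11 in WT, 2, 3 and 0 in Asxl1Y588XTg, 114, 131 and 138 in Kdm6bΔ/+ and 162, 131 and 114 in DM. The WT library 3 held most of the counts seen without the deletion. Gm18860 had no count in the WT libraries and 5, 3 and 5 in Asxl1Y588XTg, against 38, 50 and 79 in Kdm6bΔ/+ and 56, 26 and 32 in DM. With the same floor of 3 counts per library, the means were at least 29.2-fold and at least 12.5-fold higher with the deletion. Fitted fold changes of Gm18860 against WT rest on counts of 0 and are not given.

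The source genes did not show such differences. These genes were looked up after the pseudogene values had been seen. Eif5a, with 11529 ± 960.1 normalised counts in WT and 12891 ± 372 in Kdm6bΔ/+, had a 6 against 6 log2 fold change of 0.09 (SE 0.05, adjusted p = 0.629 in edgeR), and Arf1 one of −0.01 (SE 0.05, adjusted p = 0.973 in edgeR). Cnot8 was at −0.16 (SE 0.05, adjusted p = 0.218 in edgeR). It did not pass the threshold, but its 6 deletion libraries (960 to 1057) all lay below the others (1107 to 1191).

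All 3 source genes lie on chromosome 11: Eif5a at 69916714 to 69921958, 0.503 Mb from Kdm6b, Cnot8 at 58104153 to 58118594, 11.3 Mb away, and Arf1 at 59211412 to 59228270, 10.2 Mb away. Among the 332 tested pseudogenes of which at least 50% of the length matched a coding gene, the best match was on chromosome 11 for 6.93%. Of these pseudogenes 5 were called over 6 against 6 libraries, and the best match was on chromosome 11 for 4: the 3 above and Gm12663, itself on chromosome 11, which matched Ublcp1. Gm2830, which matched Rps24 on chromosome 14, was the other. The 3 above were picked for their counts and Gm12663 had a mean of 6.57 normalised counts, so this is a description of few genes.

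**Figure D1:**
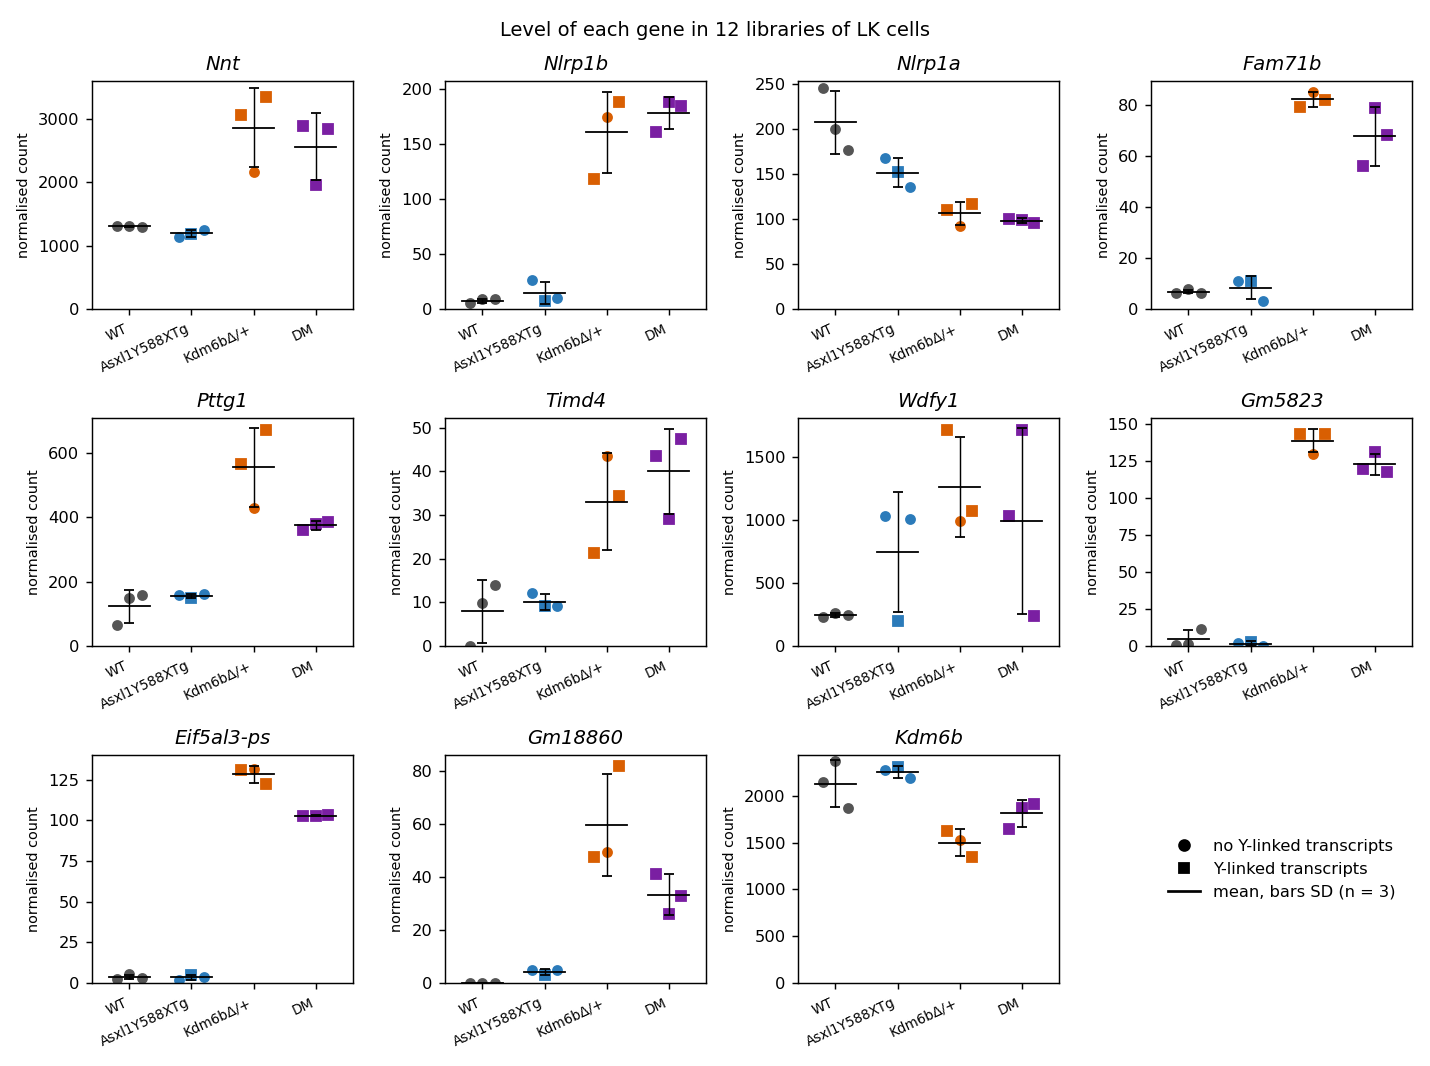
Normalised counts (y axis, linear from 0, one panel per gene) of the 10 genes and Kdm6b in each library, by genotype; points are libraries, squares those with Y-linked transcripts, lines the mean and bars the SD of 3 mice. For 9 genes the libraries with the deletion (orange and purple) do not overlap those without it (grey and blue), whereas Wdfy1 falls into 5 low and 7 high libraries that cross genotypes.

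In all, 9 of the 10 genes did not overlap between the 6 and 6 libraries, 8 of them higher and Nlrp1a lower with the deletion, beside 0.455% of the 15825 genes tested. Calls needed an adjusted p under 0.05 in edgeR's quasi-likelihood test and a fold above 1.5. By that rule 8 of the 10 were called over 6 against 6 libraries, beside 0.499% of all genes. The counts were 7 of 10 in Kdm6bΔ/+ against WT, beside 0.0948%, and 8 of 10 in DM against Asxl1Y588XTg, beside 1.74%. With a term for the Y-linked transcripts described further on, the 8 over 6 against 6 libraries became 5, since Nnt (0.92), Nlrp1a (−0.90) and Pttg1 (1.54) no longer passed. These contrasts chose the genes, and nothing is read from the counts.

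Both comparisons with the deletion can be set side by side, as they share no library. The log2 fold change in Kdm6bΔ/+ against WT and in DM against Asxl1Y588XTg was 1.14 (SE 0.14) and 1.12 (SE 0.15) for Nnt, and 4.39 (SE 0.35) and 3.62 (SE 0.38) for Nlrp1b. Without the Asxl1Y588XTg library 1, the highest of that genotype, the second value of Nlrp1b was 4.37. For Nlrp1a the values were −0.97 (SE 0.21) and −0.61 (SE 0.16). For Fam71b they were 3.57 (SE 0.38) and 3.01 (SE 0.40), for Pttg1 2.17 (SE 0.31) and 1.27 (SE 0.11), and for Timd4 2.08 (SE 0.81) and 1.99 (SE 0.34). The first value of Timd4 was 1.48 without WT 1 and 2.79 without WT 3. Wdfy1 was at 2.35 (SE 0.20) and 0.42 (SE 0.98), the second of which was −0.21 without DM 2 and 0.88 without DM 3. Over the alternative settings that second value ran from 0.29 to 1.14. All 10 had the same sign in both backgrounds, as their choice makes likely.

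**Figure D2:**
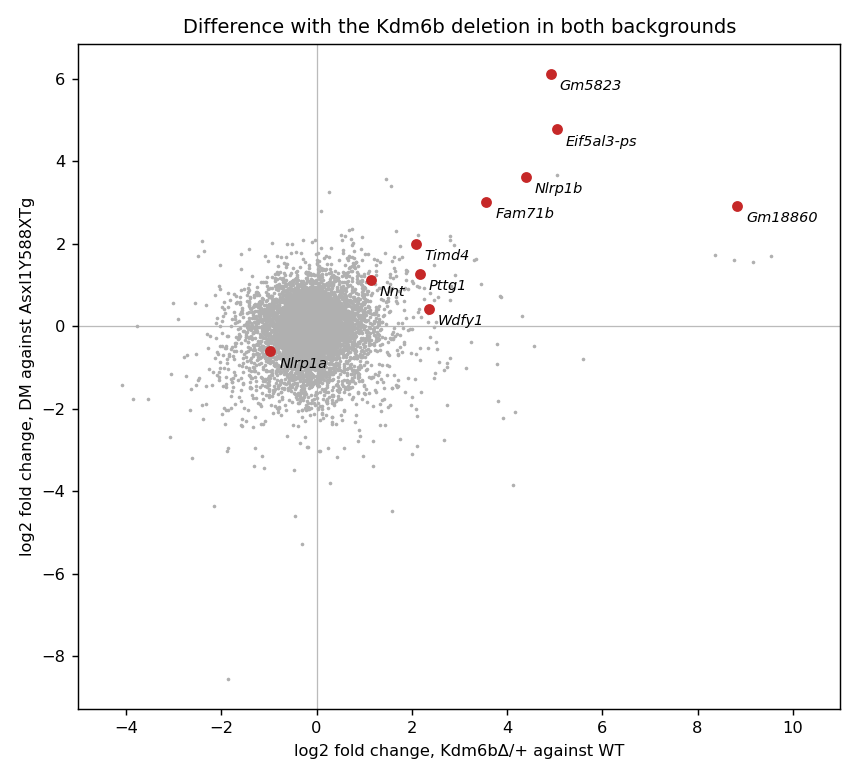
Log2 fold change with the deletion in Kdm6bΔ/+ against WT (x axis) and in DM against Asxl1Y588XTg (y axis) for 15825 genes (grey points) and the 10 genes (red, labelled). Gm5823, Eif5al3-ps, Nlrp1b and Fam71b stand apart at the upper right and Nnt lies at 1.14 and 1.12; the x value of Gm18860 rests on WT counts of 0.

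The comparisons of the Asxl1 transgene at a fixed Kdm6b genotype were not used in the choice and were tested. Since genes picked for a difference in both backgrounds tend to small values here, a low count of calls is weak evidence. In Asxl1Y588XTg against WT none of the 10 was called, beside 1.61% of all genes. Of the 15825 genes tested 1480 had an unadjusted p under 0.05, 3 of them among the 10. These 3 were Nlrp1a at −0.46 (SE 0.19, adjusted p = 0.476 in edgeR), Wdfy1 at 1.60 (SE 0.62, adjusted p = 0.519 in edgeR) and Gm18860, whose counts in both groups were near or under 5. Without the Asxl1Y588XTg library 2, which was low, Wdfy1 passed the threshold at 2.05. For Nnt the difference was −0.13 (SE 0.08, adjusted p = 0.723 in edgeR). DESeq2 also called none of the 10.

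In DM against Kdm6bΔ/+ none was called, beside 0.0948% of all genes, by edgeR or by DESeq2. Pttg1 was lower in DM, by −0.56 (SE 0.14, adjusted p = 0.182 in edgeR), with the 3 DM libraries below the 3 Kdm6bΔ/+ libraries, and Gm18860 was at −0.83 (SE 0.31, adjusted p = 0.315 in edgeR). Without the Kdm6bΔ/+ library 2, Pttg1 passed the threshold at −0.72. The value of Gm18860 ran from −1.02 without DM 1 to −0.53 without Kdm6bΔ/+ 3. For the difference between backgrounds itself, the interaction, none of the 10 passed in edgeR, beside 0.0126% of all genes. An unadjusted p under 0.05 was found for 1087 of the 15825 genes tested, 2 of them among the 10. Pttg1 was at −0.92 (SE 0.35, adjusted p = 0.639 in edgeR), and ran from −1.14 without WT 3 to −0.60 without WT 1. The other was Gm18860 (adjusted p = 0.171 in edgeR), which DESeq2 called and whose value rests on WT counts of 0.

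**Figure D3:**
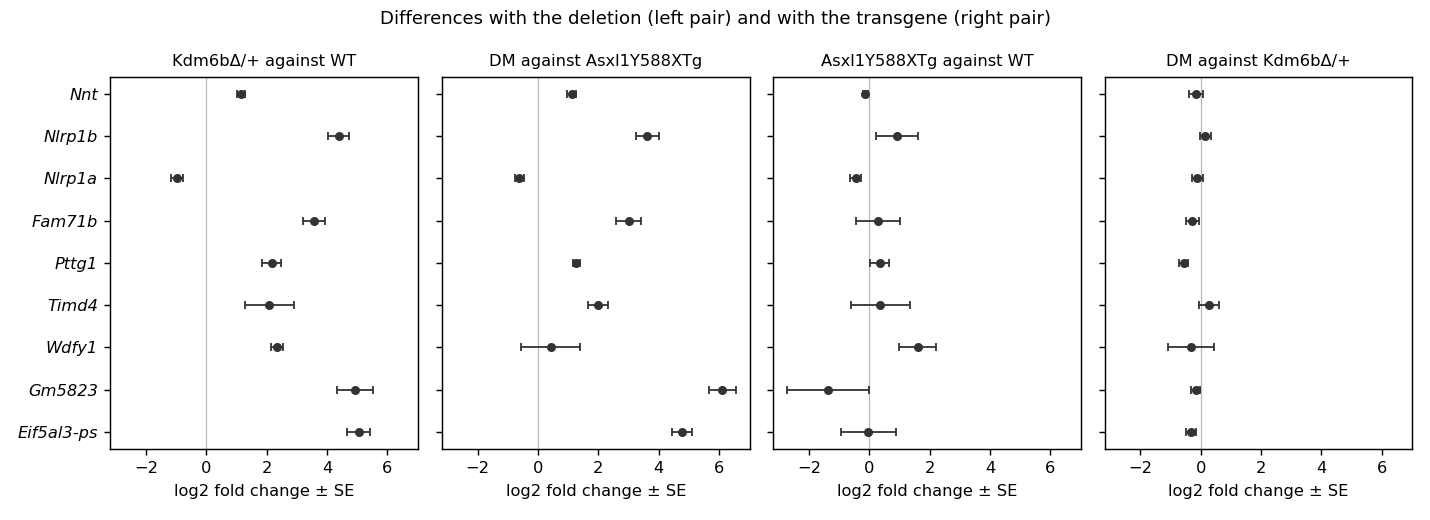
Log2 fold change ± SE (x axis) of 9 genes (y axis) in 4 pairwise comparisons of 3 against 3 libraries; Gm18860 is left out because of its WT counts of 0. In the left pair, which differ by the Kdm6b deletion, 8 genes lie above 0 and Nlrp1a below it; in the right pair, which differ by the Asxl1 transgene, no gene was called.

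Y-linked transcripts were unevenly spread over the genotypes. Ddx3y was present in 0 of 3 WT, 1 of 3 Asxl1Y588XTg, 2 of 3 Kdm6bΔ/+ and 3 of 3 DM libraries. Among the 6 libraries without them, the single deletion library, Kdm6bΔ/+ 2, had 2167 normalised counts of Nnt, where the 5 others had 1139 to 1308, and 175 of Nlrp1b against 5.49 to 26.2. Among the 6 libraries with them, the single library without the deletion, Asxl1Y588XTg 2, had 1193 of Nnt, where the 5 others had 1960 to 3360, and 7.04 of Nlrp1b against 118 to 188. For the 9 genes without overlap over all 12 libraries, such gaps in a subset follow from the choice and are no check. Each of these sets rests on 1 library on its smaller side.

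Position on the genome was not part of the rule that chose the genes. Of the 10 genes 5 lie on chromosome 11 with Kdm6b, all within 30 Mb, and the others on chromosomes 1, 5, 8, 13 and 18. Within 1 Mb of Kdm6b none of 76 tested genes was called over 6 against 6 libraries, and their libraries overlapped in every case. Within 5 Mb 2.84% of 141 genes were called, within 10 Mb 1.31% of 306, within 30 Mb 0.993% of 705, and beyond 30 Mb on chromosome 11 1.16% of 516. On the other chromosomes 0.454% of 14533 genes were called. These shares hold the genes that were chosen for this contrast. Without them 1.44% of 139 genes were called within 5 Mb, 0.658% of 304 within 10 Mb and 0.429% of 700 within 30 Mb, beside 0.427% of 14528 on the other chromosomes. The 6 and 6 libraries did not overlap for 11 of 705 genes within 30 Mb (1.56%), 5 of them chosen genes. That share was 0.388% beyond 30 Mb on chromosome 11 and, chosen genes included, 0.406% on the other chromosomes. The choice raised the share within 30 Mb through its 5 chosen genes, so no excess near Kdm6b is read from it.

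Without the 10 genes, 9 genes of chromosome 11 were called. Those within 10 Mb were Xaf1 and Spns2. Xaf1, an interferon-inducible gene that promotes apoptosis, 2.89 Mb from Kdm6b, had 40.3, 27.3 and 37.4 normalised counts in WT, 103, 63.4 and 32.4 in Asxl1Y588XTg, 85.5, 193 and 189 in Kdm6bΔ/+ and 113, 121 and 145 in DM. On the log2 scale it rose by 1.54 (SE 0.26, adjusted p = 0.0175 in edgeR), with the ranges overlapping at the Asxl1Y588XTg library 1. Spns2, a transporter of sphingosine 1-phosphate, 3.04 Mb away, fell by 0.65 (SE 0.09, adjusted p = 0.00549 in edgeR). Its high libraries were the 3 of Asxl1Y588XTg (949 to 1093), while WT (468 to 627) overlapped the deletion libraries. With a term for Y-linked transcripts neither passed (Xaf1 1.74, adjusted p = 0.187, and Spns2 −0.62, adjusted p = 0.198, in edgeR). Xaf1 was also not called without WT 3, Kdm6bΔ/+ 3 or DM 2 (adjusted p of at most 0.0543 in edgeR), nor Spns2 without Kdm6bΔ/+ 1 (−0.58).

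**Figure D4:**
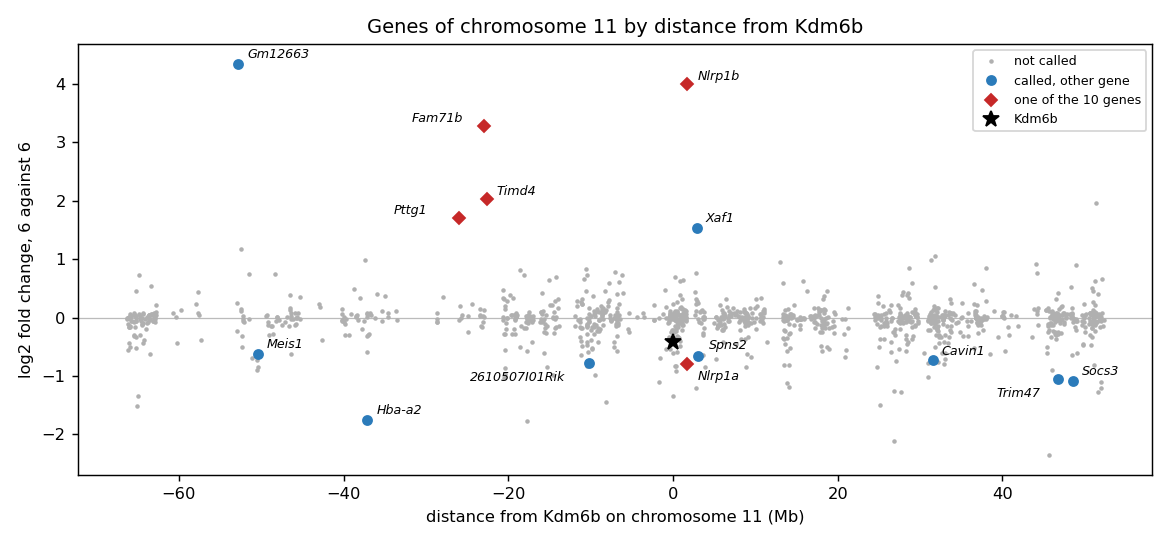
Log2 fold change over 6 against 6 libraries (y axis) of each tested gene of chromosome 11 by its distance from Kdm6b in Mb (x axis, negative towards lower coordinates); grey points were not called, blue points are other called genes, red diamonds are the 5 of the 10 genes and the star is Kdm6b. Nlrp1a and Nlrp1b lie at 1.68 and 1.74 Mb on one side, and Timd4, Fam71b and Pttg1 between 22.6 and 26.0 Mb on the other, among genes near 0.

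Of other called genes with a mean of at least 100 normalised counts and no overlap between the 6 and 6 libraries, only 4 remained. Igkv1-135, an immunoglobulin kappa variable segment, rose by 1.39 (SE 0.19, adjusted p = 0.00359 in edgeR). Bmpr1a, a receptor for bone morphogenetic proteins, fell by 0.75 (SE 0.09, adjusted p = 0.00138 in edgeR), from 904 ± 77.1 normalised counts (n = 6) to 539 ± 80.3 (n = 6). The nuclear receptor Nr4a2 fell by 0.88 (SE 0.14, adjusted p = 0.00706 in edgeR). It was highest in Asxl1Y588XTg (183 to 243 normalised counts), with 104 to 121 in WT, 67.9 to 97.2 in Kdm6bΔ/+ and 76.0 to 93.7 in DM. The noncoding 2610507I01Rik, on chromosome 11 at 59199836 to 59202385, next to Arf1, fell by 0.77 (SE 0.13, adjusted p = 0.0103 in edgeR). None of the 4 passed with a term for Y-linked transcripts, where the log2 fold changes were 1.34, −0.68, −0.67 and −0.68 in the same order (adjusted p of 0.135 to 0.353 in edgeR).

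The pathways of the 10 genes were described with lists written from general knowledge. The median log2 fold change of all 15825 genes was −0.01 over 6 against 6 libraries. Of 29 tested genes of NADPH and mitochondrial redox metabolism, none but Nnt, which was chosen in this contrast, was called over 6 against 6 libraries, and the list's median log2 fold change was 0.01. The most abundant, the glutathione peroxidase Gpx1, was at 0.01 (SE 0.05). Of 25 inflammasome genes none but the chosen Nlrp1a and Nlrp1b was called, with a median of −0.02, and the protease gene Dpp8, which restrains NLRP1 and was the most abundant, was at 0.13 (SE 0.05). Of 25 genes of securin, separase and cohesin none but the chosen Pttg1 was called, with a median of 0.03, and the cohesin subunit Rad21 was at 0.07 (SE 0.05). Since the choice fixed the calls of the chosen genes, these counts do not set them apart from their lists.

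No phosphatidylserine receptor or bridging protein of 18 was called over 6 against 6 libraries. In DM against Asxl1Y588XTg, apart from Timd4, Pros1, the bridging protein S, fell by 0.79 (SE 0.16, adjusted p = 0.0361 in edgeR). Of 17 genes of FYVE and WD-repeat proteins and endosomal Toll-like receptor signalling, none was called over 6 against 6 libraries, and none but the chosen Wdfy1 in Kdm6bΔ/+ against WT. The most abundant were Dock2 at 0.00 (SE 0.06) and Wdfy4 at 0.08 (SE 0.08), and the medians 0.03 and −0.02. Of 10 genes of eIF5A and its hypusination none but the chosen Eif5al3-ps was called, with a median of −0.01. Of 11 tested genes on a list of genes known for variants between C57BL/6 substrains, none but the chosen Nnt and Wdfy1 was called over 6 against 6 libraries or in Kdm6bΔ/+ against WT, and Ide fell by 0.91 (SE 0.14, adjusted p = 0.0226 in edgeR) in DM against Asxl1Y588XTg. Some pairwise calls of Nnt and Wdfy1 depended on the libraries and settings. In Kdm6bΔ/+ against WT both were lost with a term for Y-linked transcripts, Nnt also without any 1 WT library or Kdm6bΔ/+ 1, and Wdfy1 also in 1 fit of all genotypes and without WT 1 or WT 2. In DM against Asxl1Y588XTg the call of Nnt was lost with that term and without Asxl1Y588XTg 1, Asxl1Y588XTg 2 or DM 1. With 1 library left out, the log2 fold change of Nnt was between 1.02 and 1.30 in Kdm6bΔ/+ against WT and between 1.03 and 1.29 in DM against Asxl1Y588XTg, and that of Wdfy1 between 2.08 and 2.50 in Kdm6bΔ/+ against WT. With the term for Y-linked transcripts they were 0.93, 0.91 and 3.00. Neither Pros1 (−0.92) nor Ide (−1.05) passed with a term for Y-linked transcripts, and leaving out any 1 of 5 libraries for Pros1 or of 4 for Ide ended the call. Cyfip2, the most abundant of that list, was at 0.03 (SE 0.07), and the median was 0.06.

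Markers of other cells were counted in the same way over 6 against 6 libraries. Of the 10 progenitor markers, the transcription factor genes Gata2 and Meis1 fell by 0.78 (SE 0.12, adjusted p = 0.0130 in edgeR) and 0.62 (SE 0.10, adjusted p = 0.00726 in edgeR), with a median of −0.04. Both were highest in Asxl1Y588XTg, where Meis1 had 1048 ± 78.4 normalised counts against 438 ± 77.8 in WT, 395 ± 37.7 in Kdm6bΔ/+ and 494 ± 77.1 in DM. Of 15 markers of monocytes and dendritic cells, Cd209a fell by 2.65 (SE 0.49, adjusted p = 0.0238 in edgeR), with a median of −0.28. Of 13 erythroid markers, the globin gene Hba-a2 fell by 1.75 (SE 0.29, adjusted p = 0.0310 in edgeR), with a median of −0.14. None of 12 B cell markers (median 0.06), 12 T and NK cell markers (−0.51), 11 neutrophil markers (0.05), 6 mast cell and basophil markers (−0.17), 20 interferon-stimulated genes (−0.49) or 5 sex-linked genes (5.18) was called. In DM against Asxl1Y588XTg the interferon-stimulated genes had a median of −1.10, again without a call. Their summed normalised counts were 10354 in Asxl1Y588XTg library 1, against 5887 and 5730 in the other 2 of that genotype and 4544 to 6330 elsewhere, and without that library the medians were −0.67 and, over 6 against 6 libraries, −0.19. With a term for Y-linked transcripts Gata2, Meis1, Cd209a and Hba-a2 did not pass, with log2 fold changes of −0.66, −0.70, −2.15 and −1.07. Single libraries also decided these calls: Gata2 was not called without Kdm6bΔ/+ 1 (−0.73), Meis1 without WT 3 (−0.54) or DM 2 (−0.57), Cd209a without any 1 of 6 libraries and Hba-a2 without any 1 of 9. The part of these cells in the values of the 10 genes was not tested.

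Likeness over the 12 libraries was measured by Pearson's r of log2 CPM. The 12 libraries are of 4 genotypes and differ in depth, and those of 1 genotype are alike by design, so r is a description without a test. The 10 genes were chosen because their levels separated, wholly or in part, the libraries with the deletion from those without it. Large values of r between them, of either sign, therefore follow largely from that choice, and nothing is read from them. Other genes that differ between the same libraries are like the 10 for the same reason. Between pairs of the 10 genes r ran from −0.91 (Nlrp1a with Gm18860) to 0.97 (Fam71b with Eif5al3-ps). Pairs with Wdfy1 were between −0.59 and 0.68. Outside the 10, Tnfrsf13b, a receptor of B cells on chromosome 11 (61126755 to 61149372), was the gene most like Nlrp1b (r = 0.90) and Fam71b (r = 0.89), with 600.1 to 803 normalised counts without the deletion and 914 to 1102 with it. Usf2, a transcription factor on chromosome 7, was most like Nnt (r = 0.89) and Eif5al3-ps (r = 0.90), although it ranged only from 996 to 1220 normalised counts. Xaf1 was most like Gm18860 (r = 0.88), H3c4 most like Gm5823 (r = 0.90), Setd3 most like Timd4 (r = 0.90), Babam1 most like Pttg1 (r = 0.88) and Fer most like Wdfy1 (r = 0.80).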

How the data were processed

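RNA-Seq libraries from LK cells of 12 mice, 3 per genotype, were used. The authors trimmed reads with Trimmomatic, aligned them to mm10 with STAR and deposited the raw count of each gene from HTSeq, without normalization. The annotation and strand setting are not given in the sources used here. The methods name a KAPA stranded kit and a HiSeq, whereas the labels name an NEB Ultra kit and a NextSeq. Columns were matched to the samples' titles. The headings AS1 and KD, abbreviations that the labels do not spell out, were taken as the Asxl1 mutant and the Kdm6b heterozygous samples.

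Across libraries between 14451522 and 23482563 reads were counted on genes. Counts were analysed in R 4.3.3 with edgeR 4.0.16 (filterByExpr, TMM, robust quasi-likelihood test, Benjamini-Hochberg adjustment over 15825 genes), with DESeq2 1.42.0 as an alternative. The pairwise comparisons used the 6 libraries of the pair, and the 6 against 6 contrast and the interaction all 12. SEs were derived from the F statistic. The steps were tested on simulated data. The 10 genes and all lists were chosen with earlier results of these data known. Positions and transcripts came from GENCODE M21, of the same build, and RefSeq, and 936 of 55291 names could not be placed. Transcripts were aligned with BLAST+ 2.17.0. Other named genes are the 3 most correlated with each of the 10 (mean of at least 50 normalised counts; the leading 1 is described), called genes whose mean was 100 or more and whose 6 and 6 libraries did not overlap (up to 5 in each direction), called genes within 10 Mb of Kdm6b, and the called and the most abundant genes of each list. The lists cover the pathways of the 10 genes, substrain variants, interferon, sex-linked genes and cell type markers. Alternatives were DESeq2, RLE scaling, other filters, 1 fit of all genotypes, a replicate block, a term for Y-linked transcripts and each library left out. Libraries with Ddx3y at 10 or more CPM were taken to hold Y-linked transcripts. No pairing of the libraries by replicate number was seen, which does not exclude it. No replicates were duplicates, with chi-square values per gene of at least 7.80 between them. The source genes of the pseudogenes, and the values within libraries with and without Y-linked transcripts, were added after the data were seen, as were the alternatives for other named genes. A few results on other named genes and lists are not reported here.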

Additional observations from a re-analysis of the deposited data

How the results depend on the processing

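Of 862 recomputed values of the 10 genes no called value changed sign but 18 others did, 810 stayed on their side of the threshold, 8 more did so but moved by at least 1 SE, 24 no longer passed and 20 newly passed. In the comparisons with the deletion 429 of 431 kept their sign. The exceptions were both Wdfy1 in DM against Asxl1Y588XTg, whose main value was 0.42, at −0.21 without the DM library 2 and −0.02 without the Asxl1Y588XTg library 2. Timd4 passed the threshold over 6 against 6 libraries with DESeq2, without a filter or without the WT library 1, and Wdfy1 without a filter.

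Counts of called genes moved more. Over 6 against 6 libraries 79 genes became 197 with DESeq2, 428 without a filter and 7 when Y-linked transcripts were a term. With that term 5 of the 10 genes remained called, Nnt (0.92), Nlrp1a (−0.90) and Pttg1 (1.54) no longer, and 1 gene within 10 Mb of Kdm6b. In Kdm6bΔ/+ against WT 15 genes became 39, 52 and 6 in the same order, and 7 with all genotypes in 1 fit. In DM against Asxl1Y588XTg 275 became 446, 808, 48 and 162 with DESeq2, no filter, the Y-linked term and 1 fit, and 149 with a mean count of at least 50, where Fam71b, Timd4 and Gm18860 were not tested and 5 of the other 7 were called. With the Y-linked term 4 of the 10 were called. In Asxl1Y588XTg against WT 255 became 472 with DESeq2, 613 without a filter, 149 with a mean of at least 50 and 446 in 1 fit; 1 of the 10, Gm18860, was called in 1 fit and with the Y-linked term. In DM against Kdm6bΔ/+ 15 became 104 with DESeq2, 207 without a filter, 2 with the Y-linked term and 3 in 1 fit. The interaction had 2 genes, 66 with DESeq2 (1 of the 10), 258 without a filter (3 of the 10), and 0 with the Y-linked term or a mean of at least 50.

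Leaving out 1 library gave 28 (without DM 2) to 106 (without Asxl1Y588XTg 3) genes over 6 against 6 libraries, with 8 to 9 of the 10. It gave 7 to 27 in Kdm6bΔ/+ against WT (5 to 8 of the 10), 59 to 271 in DM against Asxl1Y588XTg (6 to 8), 112 to 254 in Asxl1Y588XTg against WT (0 to 1, Wdfy1 without Asxl1Y588XTg 2), 8 to 35 in DM against Kdm6bΔ/+ (0 to 1, Pttg1 without Kdm6bΔ/+ 2) and 0 to 10 for the interaction.

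None of the other called genes given with an adjusted p under 0.05 kept its call with the Y-linked term, an alternative applied to them after seeing the data. With the replicate block 49 genes were called over 6 against 6 libraries, 71 in DM against Asxl1Y588XTg and 101 in Asxl1Y588XTg against WT, with 8, 7 and 0 of the 10. Libraries of the same number had deviations with a median correlation of −0.04 (18 pairs, −0.12 to 0.08), so no pairing by number was seen. With 3 mice a group this does not exclude such a pairing. The cause of these shifts was not tested. Each group held 3 mice. Timd4, Fam71b and the 3 pseudogenes had at most 13 counts in any library without the deletion, and Nlrp1b at most 26. The folds of these genes are therefore imprecise.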
